A study of Mus musculus with 1152 samples.

Results

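The 92 gene symbols described here carry the names of the cytosolic ribosomal proteins, the proteins that together with ribosomal RNA build the large and small ribosomal subunits outside mitochondria. They were taken by symbol from the 48587 genes of the count table: symbols starting Rpl or Rps followed by a digit, with Rplp0, Rplp1, Rplp2 and Rpsa, and without the 275 symbols that carry a -ps mark for pseudogenes and without the Rps6k kinases. GENCODE M21 types Rps12l1, Rpl6l, Rps3a2, Rps3a3, Rpl37rt and Rps4l, which have no such mark and stayed in, as pseudogenes as well. Of the 92, 85 passed the filter on low counts and were tested. The other 7 were Rps12l1, which had 0 reads, and Rpl3l, Rps3a2, Rpl10l, Rpl6l, Rps3a3 and Rpl23a, which had 8 to 97 reads over all kept cells. One matched symbol, Rps19bp1, encodes a protein that binds Rps19 and is not itself a ribosomal protein.

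A ribosome holds one copy of nearly every ribosomal protein, so a cell has to make them together and in proportion. Most of their mRNAs begin with a C followed by a run of pyrimidines, the 5′ terminal oligopyrimidine (TOP) tract. Through this tract the kinase mTOR and the protein Larp1 adjust the translation and stability of these mRNAs, together with those of several elongation factors.

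Single microglia, which are the brain's own macrophages, had been sorted from 3 regions (cortex, hippocampus, cerebellum) of wild-type (WT) and 5xFAD mice. All mice are labelled as strain C57BL/6J, and the labels give no age or sex. The 5xFAD line carries human transgenes with familial Alzheimer mutations, driven in neurons by the Thy1 promoter, so the microglia are not the cells that express them. Per the series' design text the regions came from the same mice, with 4 mice in each WT group and in 5xFAD cortex, and 3 in 5xFAD hippocampus and in 5xFAD cerebellum. The labels name no treatment. Libraries were made with Smart-seq2, a protocol that covers whole transcripts and has no molecular identifiers. WT cortex and WT hippocampus lay on plate P209, WT cerebellum and 5xFAD cortex on plate P210, and 5xFAD hippocampus and 5xFAD cerebellum on plate P211. Every comparison of 5xFAD with WT within a region is therefore also a comparison of plates, and the 2 cannot be told apart.

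The 1041 kept cells were added up by mouse and region into 22 sums, each of 35 to 72 cells and 5696201 to 26669220 gene reads. All 10 microglia markers had reads in every group, at a summed 44943 to 66867 CPM (counts scaled to library size). In 14 cells more than 1% of reads fell on markers of other cell types, and neutrophil markers reached 13398 CPM in 1 sum of 5xFAD cerebellum against at most 10.4 CPM in any sum of the other groups. Monocyte markers reached 2207 CPM in 5xFAD cerebellum and 398 CPM in WT cerebellum, against at most 91.1 CPM in cortex and hippocampus. Border macrophage markers reached 668 CPM in WT and 543 CPM in 5xFAD cerebellum, against at most 323 CPM in cortex and hippocampus. The 12 blank wells held 2 to 100 reads on ribosomal protein genes, with a median of 7.5, against a median of 1021 in kept cells.

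To show the TOP tract, the 40 bases around the RefSeq transcription start (build GRCm38.p6) are printed for the genes that the results below turn on, 20 before the start and 20 from the start on. Capitals mark each C followed by at least 5 bases that are each C or T, searched on the strand of the gene only. Rpl8, Rplp1 and Rps14, also called below, had no entry in the table used.
Rps3, chr7:99483690-99483729, minus strand: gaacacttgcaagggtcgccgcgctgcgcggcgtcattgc
Rps6, chr4:86857348-86857387, minus strand: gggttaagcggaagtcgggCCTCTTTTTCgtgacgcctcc
Rps9, chr7:3704021-3704060, plus strand: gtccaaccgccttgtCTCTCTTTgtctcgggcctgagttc
Rpl4, chr9:64173367-64173406, plus strand: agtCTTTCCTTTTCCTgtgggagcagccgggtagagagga
Rplp0, chr5:115559447-115559486, plus strand: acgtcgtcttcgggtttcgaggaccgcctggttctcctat
Rplp2, chr7:141447631-141447670, plus strand: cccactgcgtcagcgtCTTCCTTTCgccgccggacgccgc
Rack1, chr11:48800340-48800379, plus strand: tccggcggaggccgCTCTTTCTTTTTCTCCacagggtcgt
Eef1a1, chr9:78481705-78481744, minus strand: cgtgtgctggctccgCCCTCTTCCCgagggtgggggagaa
Eef2, chr10:81176611-81176650, plus strand: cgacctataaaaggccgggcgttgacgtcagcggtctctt

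In Rps6 the marked run opens at the base just before the RefSeq start. The start itself is also a C followed by at least 5 such bases. In Rpl4 the run lies before the RefSeq start, and in Rps3, Rplp0 and Eef2 none was found in this window. The starts of the genes in GENCODE M21 can differ from these. That of Rpl4, at 64173375, lies within its marked run. Those of Rps3 (99483738), Rps6 (86857412), Rps9 (3703993) and Rplp2 (141447370) lie outside the printed windows. The place or lack of a run, and the shares that follow, therefore hold for the RefSeq starts only. Over the 79 promoters listed for 67 of the members, 12 (15.2%) began with such a run exactly at the start, against 1.70% of all 32851 promoters. Anywhere in the 40 bases the run was present in 55.7% of member promoters and in 29.4% of all promoters. The 12 belonged to Rps6, Rps10, Rps15a, Rps18, Rps27, Rps27rt, Rpl14, Rpl15, Rpl28, Rpl35, Rpl35a and Rpl38.

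Reads on ribosomal protein genes were spread very unevenly. Rpl4, a large-subunit protein that lines the tunnel through which the new peptide leaves, alone took 12.8% of all reads on members. The top 5, with Rpl4, Rps3, Rpl8 and Rps9 among them, took 42.1% and the top 10 took 57.1%. Per kilobase of exon, the highest mean levels over the 22 sums included those of Rpl4 (375 CPM per kb), Rplp1 (277 CPM per kb), Rps3 (245 CPM per kb) and Rpl8 (240 CPM per kb). At the other end, Rps12l1 was at 0 and Rpl3l, Rps3a2, Rpl10l and Rpl6l were at 0.0371 to 0.0565 CPM per kb. Reads fell on 5 members in more than 90% of kept cells and on 9 members in less than 5%, and the median member had a read in 61.6% of cells.

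Rps6, the small-subunit protein phosphorylated downstream of mTOR, was at only 3.09 CPM per kb and had a read in 10.8% of kept cells, whereas Rps3 had one in 90.2% and Rpl4 in 88.0%. Rpsa, a small-subunit protein first known as a laminin receptor precursor, was at 3.89 CPM per kb. Of the 50-base words in the protein-coding transcripts of Rps6, 84.6% also occur in the transcripts of another gene. For Rpl23a this share was 85.7%, for Rpsa 33.3%, and for the abundant Rps3 only 2.82%. Across the 91 members with reads, the log2 level per kilobase and the share of shared words had a Pearson r of -0.23 and a Spearman rho of -0.25, a description across genes that share the same libraries. How reads that fit several genes were counted is not given in the sources used here, so a low level of a member with much shared sequence may understate its mRNA. Reads on the 275 symbols with the -ps mark made up only 0.00308 to 0.00653% of gene reads per sum.

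**Figure D1:**
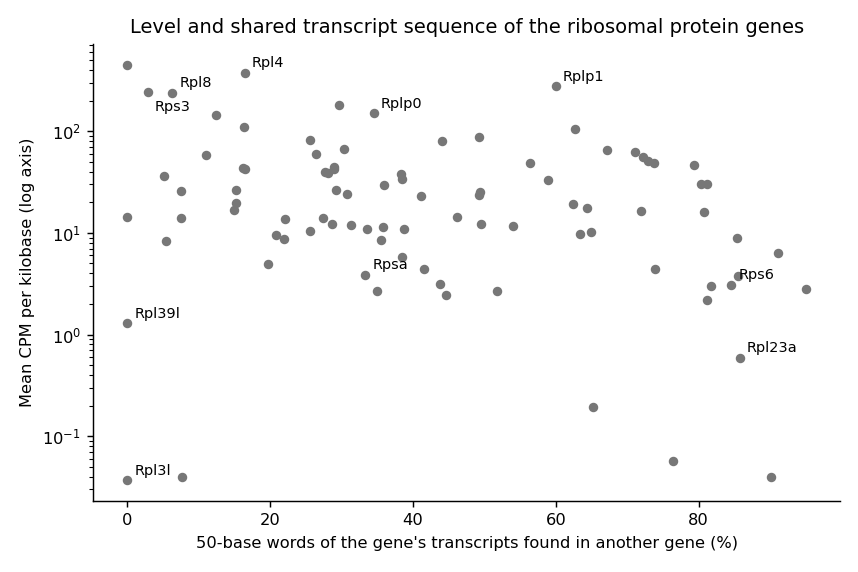
Each point is a ribosomal protein gene with reads (91 genes, Rps12l1 at 0 left out). The x axis gives the percent of 50-base words of its transcripts that occur in another gene, and the y axis its mean CPM per kilobase over the 22 sums, on a log axis. Rpl4 sits at 375 CPM per kb with 16.5% shared, Rps6 at 3.09 with 84.6%, while Rplp1 at 277 with 60% and Rpl3l at 0.0371 with 0% lie in the opposite corners.

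Several ribosomal protein genes have a close relative under a similar symbol, and in the pairs of Rpl3, Rpl10 and Rpl39 that gene carried nearly all the reads. Rpl3 ranged from 54.1 to 154 CPM over the sums, while its paralog Rpl3l had 17 reads in all. Rpl10 ranged from 20.4 to 64.3 CPM and Rpl10l had 8 reads. Rpl39 ranged from 17.6 to 49.8 CPM, and Rpl39l had reads in only 10 of 22 sums. Other pairs were closer or went the other way. Per kilobase, Rpl22 was at 36.3 CPM and Rpl22l1 at 33.0 CPM. Rps27l, a p53 target, was at 43.0 CPM per kb with 16.2% shared words, above Rps27 at 14.3 with 46.2% shared words. Rpl36al was at 13.7 CPM per kb, above Rpl36a at 3.75, a gene with 85.5% shared words. Rpl7 was at 88.1 CPM per kb against 25.6 for Rpl7l1, and Rps4x was at 55.6 against 16.7 for Rps4l, a transcribed pseudogene in GENCODE M21. Rps19bp1 was at 14.5 CPM per kb.

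All members together took a small share of gene reads, and the share differed between groups. In WT cortex it was 0.426, 0.394, 0.383 and 0.412% in the 4 mice, and in 5xFAD cortex 0.475, 0.455, 0.478 and 0.482%. In WT hippocampus it was 0.337, 0.382, 0.406 and 0.397%, and in 5xFAD hippocampus 0.537, 0.627 and 0.467% in 3 mice. In WT cerebellum it was 0.484, 0.577, 0.520 and 0.501%, and in 5xFAD cerebellum 0.413, 0.402 and 0.385%. These 5xFAD values of the sums thus lay above all WT values in cortex and in hippocampus, and below all WT values in cerebellum. For the median cell of each sum the cortical groups overlapped. There 5xFAD cortex mouse 1 was at 0.373%, below WT cortex mice 2 (0.404%) and 4 (0.398%). The other 5xFAD cortex mice, at 0.427 to 0.453%, lay above all WT cortex mice. In hippocampus and cerebellum the median cells did not overlap. The median kept cell had reads on 47 members in WT cortex and in WT hippocampus, 49 in WT cerebellum, 52 in 5xFAD cortex, 55.5 in 5xFAD hippocampus and 50 in 5xFAD cerebellum.

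A share of reads cannot separate more ribosomal mRNA from fewer other reads. Member reads per read of the ERCC spike-ins, RNA added to each well in a fixed amount, were 1.32 to 1.73 in WT cortex and 2.27 to 2.97 in 5xFAD cortex, 1.29 to 1.65 in WT hippocampus and 2.22 to 2.98 in 5xFAD hippocampus, and 0.998 to 1.87 in WT cerebellum and 1.505 to 1.87 in 5xFAD cerebellum. On this scale the groups again did not overlap in cortex and hippocampus, but they overlapped in cerebellum. All gene reads per spike-in read differed as well, at 335 to 420 in WT cortex and 478 to 653 in 5xFAD cortex. They were 354 to 415 in WT hippocampus and 354 to 638 in 5xFAD hippocampus. In cerebellum they were 206 to 359 in WT and 374 to 454 in 5xFAD. Part of the cortical rise per spike-in read was thus shared by all genes. Plate and genotype cannot be told apart on this scale either. The share of reads on mitochondrially encoded genes was 2.36 to 4.07% in 5xFAD hippocampus and 1.52 to 2.01% in the sums of all other groups. Without these genes and Slc34a2, the gene with most reads in the blank wells, the mean member share was 0.388% in WT hippocampus and 0.563% in 5xFAD hippocampus. It was 0.412% in WT and 0.481% in 5xFAD cortex, and 0.530% in WT and 0.408% in 5xFAD cerebellum. The part of the mitochondrial share in these differences was not tested further.

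**Figure D2:**
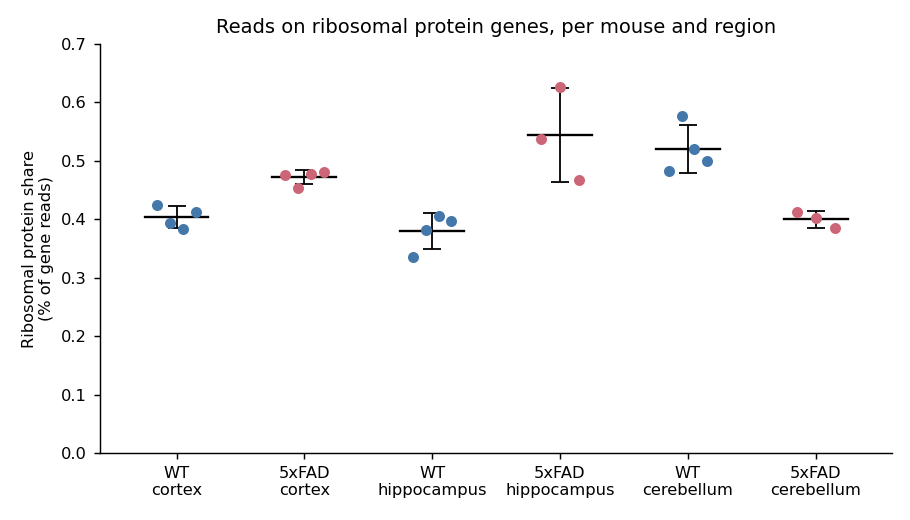
Each point is 1 mouse and region, the y axis is the percent of its gene reads on the 92 ribosomal protein genes, horizontal lines are group means and bars are SD over mice (n = 4, or 3 in 5xFAD hippocampus and 5xFAD cerebellum). The 5xFAD hippocampus (0.544 ± 0.0802%) and WT cerebellum (0.520 ± 0.0407%) are highest, and WT hippocampus (0.380 ± 0.0308%) is lowest.

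In hippocampus, 5 members rose in 5xFAD microglia relative to WT, among them Rps3 of the small subunit and Rplp0, Rpl4 and Rpl8 of the large subunit. Rps3, which sits where mRNA enters the ribosome, was at 303, 374, 363 and 402 CPM in WT and at 703, 720 and 562 CPM in 5xFAD. Its log2 fold change was 0.88 ± 0.14 (SE), with an adjusted p of 0.000916 in edgeR's quasi-likelihood test. Every 5xFAD mouse lay above every WT mouse.

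Rplp0, the base of the stalk that recruits elongation factors, was at 134, 170, 130 and 214 CPM in WT hippocampus and at 322, 316 and 279 CPM in 5xFAD (log2 0.91 ± 0.20, adjusted p = 0.0187). Rpl4 was at 423, 539, 487 and 437 CPM in WT and at 737, 1031 and 702 CPM in 5xFAD (log2 0.80 ± 0.18, adjusted p = 0.0219). Rpl8, which lies close to the peptidyl transferase centre, was at 218, 147, 196 and 231 CPM in WT and at 353, 383 and 293 CPM in 5xFAD (log2 0.79 ± 0.19, adjusted p = 0.0460). In all 3 genes the lowest 5xFAD mouse lay above the highest WT mouse. In the GRCm38 annotation (GENCODE M21), Rps3 spans chr7:99477896-99483738, Rplp0 chr5:115559467-115563727, Rpl4 chr9:64173375-64178666 and Rpl8 chr15:76904078-76906314. Shared words were few in Rps3 (2.82%) and Rpl8 (6.30%) and more frequent in Rpl4 (16.5%) and Rplp0 (34.5%).

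These 5 were among 85 members tested, in a comparison in which 1.01% of all 17358 genes tested were called and 0.76% were called higher. Of the 85, 71 had a positive fold change and 20 an unadjusted p under 0.05, all of them higher, and the median log2 fold change was 0.59 against 0.10 over all genes. For 27 members every 5xFAD mouse was above every WT mouse, beside 15.1% of all genes tested, and for 0 members below, beside 3.8%. The tendency was alike for both subunits as told by symbol. Of the 50 symbols starting Rpl, 40 were positive with a median of 0.55. Of the 34 starting Rps, with Rps19bp1 left out, 30 were positive with a median of 0.64. These sets include the paralogs and the pseudogenes Rpl37rt and Rps4l. The remaining stalk proteins did not pass the test, with log2 0.65 ± 0.21 for Rplp1 (adjusted p = 0.214) and 0.54 ± 0.34 for Rplp2 (adjusted p = 0.525). Rpsa, at 1.68 ± 0.70 (adjusted p = 0.335), and Rps6, at 1.38 ± 1.5002 (adjusted p = 0.812), did not pass either.

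Rps3 stayed past the threshold when any of the 7 hippocampal sums was left out, but the count of 5 fell to 2 without WT hippocampus replicate 1, without WT hippocampus replicate 3 or without 5xFAD hippocampus replicate 2, and to 3 without 5xFAD hippocampus replicate 1 or replicate 3. DESeq2 called 26 members, and scaling to the spike-ins left 2. The shares of all genes called, here and below, are those of edgeR. They give no background for the DESeq2 counts. The plates differ between WT and 5xFAD hippocampus.

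**Figure D3:**
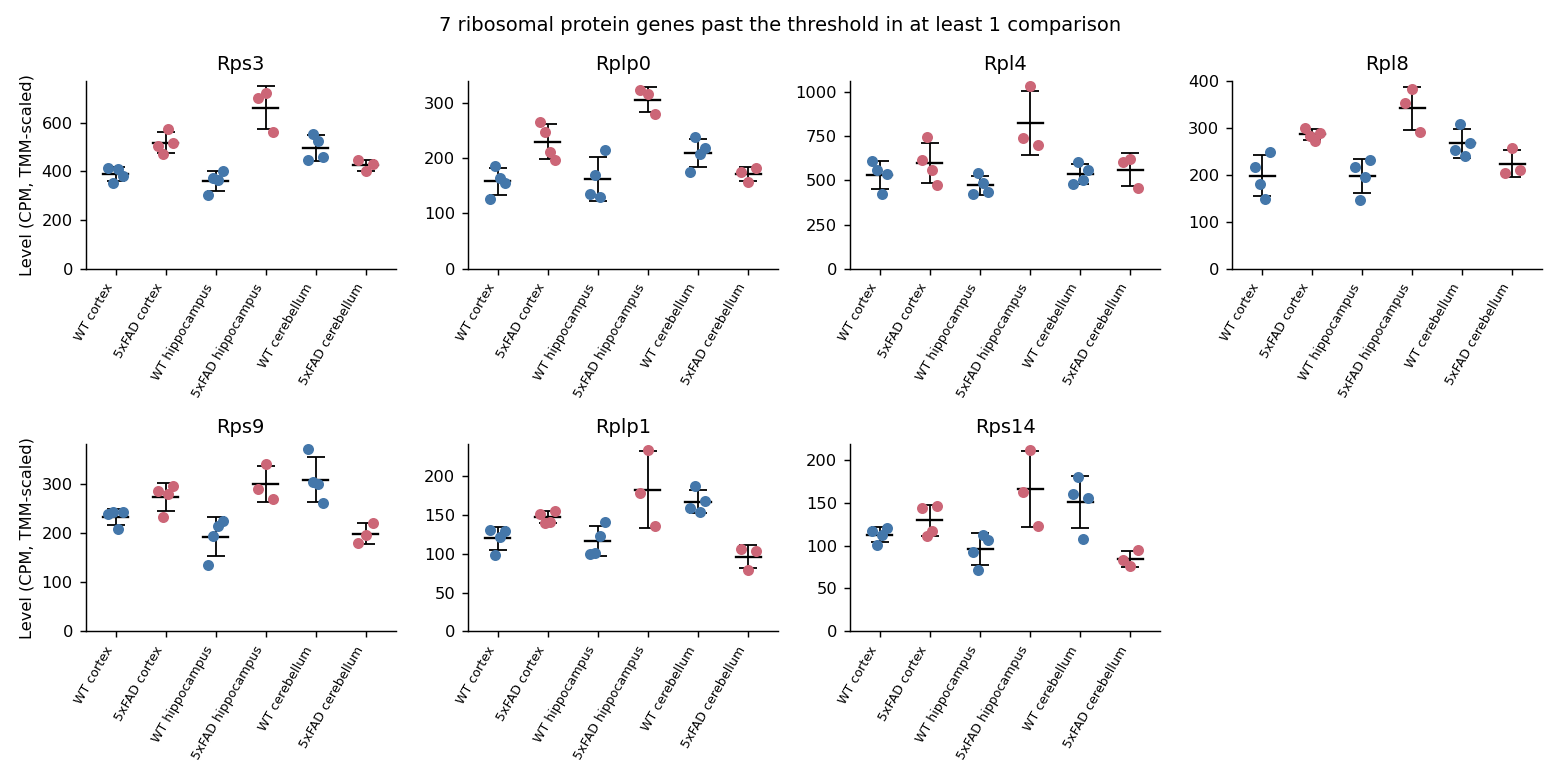
Levels in TMM-scaled CPM of 7 ribosomal protein genes past the threshold in at least 1 comparison, 1 panel a gene. Points are mice (blue WT, red 5xFAD), lines are means and bars SD over 3 or 4 mice. In Rps3, Rplp0, Rpl4 and Rpl8 the 3 mice of 5xFAD hippocampus all lie above the 4 mice of WT hippocampus, and in Rps9, Rplp1 and Rps14 the 5xFAD cerebellum lies below the WT cerebellum.

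In cortex the direction was the same but no member passed the test: the smallest adjusted p in edgeR was 0.314, for Rps3, and 0.294% of all genes tested were called. Rps3 was at 414, 353, 408 and 380 CPM in WT cortex and at 503, 473, 575 and 517 CPM in 5xFAD cortex, groups that did not overlap, with a log2 fold change of 0.41 ± 0.13. Of 85 members, 67 were positive, 6 had an unadjusted p under 0.05, all higher, and the median was 0.27 against -0.09 over all genes. For 12 members the 5xFAD mice lay above all WT mice, beside 3.06% of all genes tested, and for 1 below, beside 3.66%. DESeq2 called 1 member and limma on cell means 2.

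In cerebellum no member passed either, and here most fold changes were negative. The smallest adjusted p was 0.412, for Rplp1, and 0.0461% of all genes tested were called. Rplp1, a stalk protein, was at 159, 187, 154 and 168 CPM in WT cerebellum and at 106, 79.3 and 104 CPM in 5xFAD cerebellum. Rps14, a small-subunit protein of the platform, was at 161, 179, 108 and 155 CPM in WT and at 83.1, 76.2 and 94.6 CPM in 5xFAD. Rps9, a small-subunit protein, was at 371, 306, 300.1 and 262 CPM in WT and at 180, 197 and 222 CPM in 5xFAD. In all 3 genes the 5xFAD mice lay below the WT mice, with log2 fold changes of -0.79 ± 0.22, -0.83 ± 0.24 and -0.63 ± 0.19. Of 85 members, 67 were negative and 9 had an unadjusted p under 0.05, all lower. The median was -0.46, and it turned to 0.06 when sums were scaled to the spike-ins, a scaling that also moved the median of all genes from -0.01 to 0.47. For 24 members the 5xFAD mice lay below all WT mice, beside 2.62% of all genes tested, and for 0 above, beside 3.93%. DESeq2 called 8 members, and limma on cell means 0. Rps9 spans chr7:3703993-3706897 and Rplp1 chr9:61913284-61914542. The 5xFAD cerebellum holds the sum with neutrophil markers, and without the 14 cells rich in other markers the median was -0.41. Without those cells the member share of WT cerebellum mouse 2 went from 0.577 to 0.531%.

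**Figure D4:**
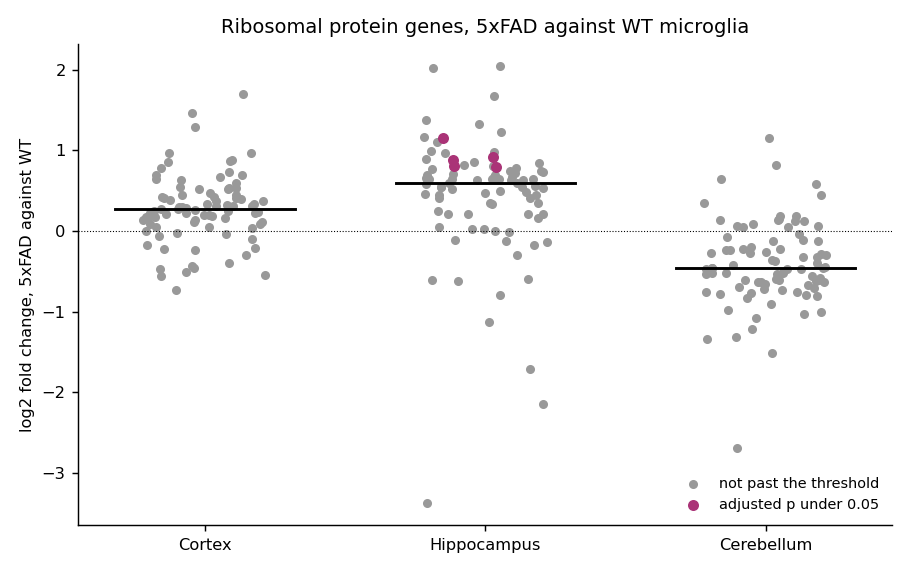
Each point is 1 of 85 ribosomal protein genes, the y axis is its log2 fold change in 5xFAD against WT microglia of the region on the x axis, and the black line is the median. The medians are 0.27 in cortex, 0.59 in hippocampus and -0.46 in cerebellum under TMM scaling, with the cerebellar median at 0.06 under spike-in scaling. In cerebellum that scaling also raised the median of all genes. Coloured points mark the 5 genes past the threshold, all in hippocampus.

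The difference between these genotype effects was tested directly. Between hippocampus and cerebellum it passed the test for 5 members, in a comparison in which 0.3% of all genes tested were called and 0.248% were called higher. Rps3 had a difference of 1.10 ± 0.20 in log2 fold change (edgeR adjusted p = 0.0134) and Rps9 of 1.27 ± 0.26 (adjusted p = 0.0310). Rps14 had 1.62 ± 0.34 (adjusted p = 0.0364) and Rplp1 1.45 ± 0.30 (adjusted p = 0.0368). In all 5 the fold change was positive in hippocampus and negative in cerebellum. The median difference over the 85 members was 1.05 against 0.14 over all genes, with 73 positive. Of the 25 members with an unadjusted p under 0.05, 24 had the more positive genotype effect in hippocampus.

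The count depended on single mice. It was 0 without 5xFAD hippocampus replicate 2, without 5xFAD cerebellum replicate 2 or without 5xFAD cerebellum replicate 3, and 1 without 5xFAD hippocampus replicate 1. It was 2 without WT hippocampus replicate 1 or 2, without WT cerebellum replicate 1 or 2 or without 5xFAD cerebellum replicate 1, and 3 without WT cerebellum replicate 4. With the replicate number as a block it was 1, with spike-in scaling 0, and with DESeq2 28. Between hippocampus and cortex, 0 members passed in edgeR (5 at an unadjusted p under 0.05, 2 by DESeq2) and 0.0461% of all genes were called. Between cortex and cerebellum, 0 passed (15 at an unadjusted p under 0.05, 10 by DESeq2) and 0.0807% of all genes were called.

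Between regions of 1 genotype no member passed the test in edgeR. Within WT, hippocampus and cortex shared a plate, and 40 of 85 members were positive with a median of -0.01. Only 1 member, Rpl22l1, had an unadjusted p under 0.05, DESeq2 called 0, and 0% of all genes tested were called. In 1 member all hippocampal mice lay above all cortical mice, beside 1.24% of all genes, and in 3 below, beside 3.13%. WT cerebellum exceeded WT cortex for 76 members, with a median of 0.35, 14 at an unadjusted p under 0.05, all higher, 5 called by DESeq2 and 0.277% of all genes called. In 12 members all cerebellar mice lay above all cortical mice, beside 2.19% of all genes, and in 1 below, beside 2.45%. The spike-in median was 0.07, under a scaling that moves all genes. Gene reads per spike-in read averaged 286 ± 63.8 (SD) in WT cerebellum and 361 ± 39.8 in WT cortex. WT hippocampus was below WT cerebellum for 73 members, with a median of -0.43 and 15 at an unadjusted p under 0.05, of which 14 were lower. DESeq2 called 14, and 0.374% of all genes were called. The hippocampal mice lay below all cerebellar mice in 19 members, beside 2.81% of all genes, and above in 2, beside 2.47%. Both of these comparisons cross plates P209 and P210.

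Within 5xFAD, hippocampus and cerebellum shared plate P211, and members were higher in hippocampus for 69 of 85, with a median of 0.56 against 0.03 over all genes. The smallest edgeR adjusted p was 0.0965, for Rps3, at 0.64 ± 0.15. In 42 members all 3 hippocampal mice lay above all 3 cerebellar mice, beside 7.3% of all genes tested, and in 1 below, beside 5.85%. At an unadjusted p under 0.05 there were 17 members, all higher, DESeq2 called 19, and 0.219% of all genes were called by edgeR. 5xFAD hippocampus against 5xFAD cortex gave 62 positive members and a median of 0.29, which was -0.02 under spike-in scaling. That scaling moves all genes: gene reads per spike-in read averaged 485 ± 143 (SD) in 5xFAD hippocampus and 540 ± 78.5 in 5xFAD cortex. In this comparison 8 members had an unadjusted p under 0.05, DESeq2 called 2, and 0.0346% of all genes were called. The groups did not overlap in 12 members with hippocampus above, beside 11.3% of all genes, and in 0 with it below, beside 3.12%. 5xFAD cerebellum against 5xFAD cortex gave 64 negative members, a median of -0.28, 6 at an unadjusted p under 0.05, 0 called by DESeq2 and 0.0576% of all genes called, with 29 members below all cortical mice, beside 3.85% of all genes, and 0 above, beside 5.23%. These 3 comparisons share groups with each other and with the genotype comparisons.

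The members were also compared within mouse, region and plate. Cells of 5xFAD mice were divided by a panel of 8 genes of reactive microglia (Cst7, Lpl, Clec7a, Itgax, Csf1, Axl, Ch25h and Igf1), none of them ribosomal. A cell with at least 10 reads on at least 3 of the 8 was called panel-positive. Panel-positive cells made up 48.7% of cells in 5xFAD hippocampus (75 of 154), 25.7% in 5xFAD cortex (47 of 183) and 18.1% in 5xFAD cerebellum (35 of 193). In WT they were 10 of 162 cells in cerebellum, 1 of 167 in cortex and 1 of 182 in hippocampus.

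Ribosomal protein genes took a larger share of reads in the panel-positive cells in all 10 mouse-region pairs. Because the regions came from the same mice, these pairs are repeated measures on fewer mice and not 10 independent animals. In cortex the shares in panel-negative and panel-positive cells were 0.382 and 0.774% in mouse 1, 0.399 and 0.566% in mouse 2, 0.441 and 0.594% in mouse 3, and 0.442 and 0.577% in mouse 4. In hippocampus they were 0.442 and 0.629%, 0.450 and 0.750%, and 0.378 and 0.533%. In cerebellum they were 0.383 and 0.491%, 0.379 and 0.596%, and 0.368 and 0.4655%. The lowest panel-positive share lay above the highest panel-negative share, 0.450%, and the ratio within a pair ran from 1.26 to 2.03 with a median of 1.41. The classes rested on 7 to 28 panel-positive and 20 to 59 panel-negative cells each.

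**Figure D5:**
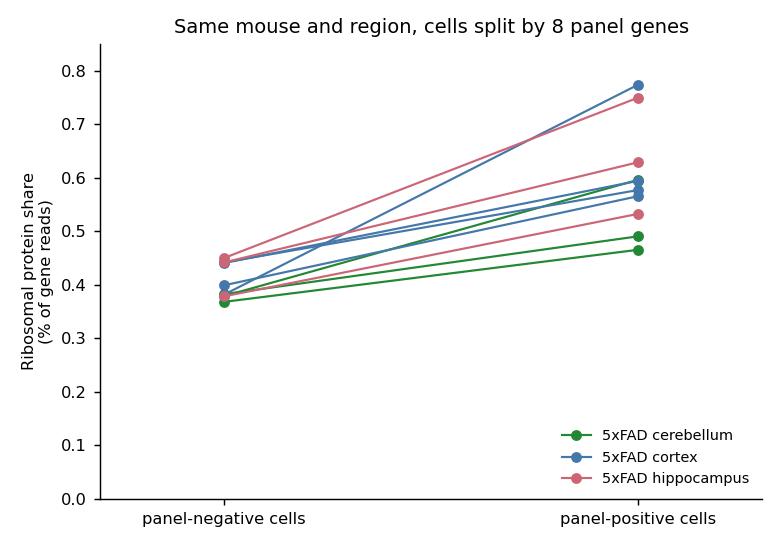
Each line joins the panel-negative and panel-positive cells of 1 mouse and region of 5xFAD, coloured by region, and the y axis is the percent of gene reads on ribosomal protein genes. All 10 lines rise, from 0.368 to 0.450% in panel-negative cells to 0.4655 to 0.774% in panel-positive cells.

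In a paired edgeR fit, 4 of 80 members tested rose in panel-positive cells, among them Rpl4, Rpl8 and Rplp0. The fit had a term for each mouse-region pair and none for the mouse, so it treated the 10 pairs as independent. This comparison called 1.96% of the 9988 genes tested, 1.15% as higher. Rpl4 averaged 874 CPM in panel-positive and 493 CPM in panel-negative cells over the 10 pairs (log2 0.79 ± 0.13, adjusted p = 0.00476). In 5xFAD hippocampus, the 3 mice had Rpl4 at 950.5, 1389 and 811 CPM in panel-positive cells and at 505, 499 and 537 CPM in panel-negative cells. Rpl8 averaged 374 and 227 CPM (log2 0.71 ± 0.13, adjusted p = 0.0110) and Rplp0 329 and 177 CPM (log2 0.87 ± 0.16, adjusted p = 0.0123). Each of the 4 was higher in the panel-positive cells of 10 of 10 pairs.

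Higher levels in all 10 pairs were found for 23 of 80 members, beside 1.42% of all genes tested, and lower levels in all 10 for 0, beside 1.6%. Of 80 members, 65 were positive and 20 had an unadjusted p under 0.05, all higher. The median log2 fold change was 0.56, against -0.35 over all genes tested. Rps3 was higher in 9 of 10 pairs but did not pass (log2 0.68 ± 0.17, adjusted p = 0.0641), nor did Rplp1 (0.72 ± 0.18, adjusted p = 0.0586). Rpsa, at 18.6 and 8.58 CPM, and Rplp2, at 48.7 and 31.0 CPM, were higher in 10 of 10 pairs with adjusted p of 0.457 and 0.475. DESeq2 called 35 members and the fit without the pairing 11. Panel-positive cells were somewhat deeper, with a median of 315949 against 283521 reads and 3092 against 2644 genes, and had a higher mitochondrial share, 2.41 against 1.58%. With every cell thinned to 50000 reads, 3 members were called, without Rpl8 (adjusted p = 0.321), and without the cells rich in markers of other cell types again 3, without Rpl8 (adjusted p = 0.188).

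When panel-positive cells were left out of all groups, an alternative chosen after seeing the data, 0 members passed in any of the 9 comparisons of groups or the 3 tests of a difference. The share in 5xFAD hippocampus then fell from 0.544 to 0.423%, that in 5xFAD cortex from 0.472 to 0.416% and that in 5xFAD cerebellum from 0.400 to 0.377%. WT cerebellum went from 0.520 to 0.517%, while WT cortex stayed at 0.404% and WT hippocampus at 0.380%. The hippocampal fold changes became 0.31 for Rps3, 0.42 for Rplp0, 0.14 for Rpl4 and 0.35 for Rpl8, and the median of members 0.24. The cerebellar median stayed negative at -0.52. Fewer cells enter these fits, and the contribution of cell number was not tested.

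The genes that accompany ribosomal proteins were followed with lists of the same pathway. Among 17 translation factors with TOP mRNAs, 3 rose in 5xFAD hippocampus: Eef1a1, which delivers aminoacyl-tRNA, Eef2, which moves the ribosome along the mRNA, and Pabpc1, which binds the poly(A) tail. Eef1a1 was at 477, 537, 620 and 593 CPM in WT and at 1386, 1582 and 1084 CPM in 5xFAD hippocampus (log2 1.28 ± 0.15, edgeR adjusted p = 1.71e-05). Eef2 rose by 1.12 ± 0.16 (adjusted p = 0.000245) and Pabpc1 by 1.47 ± 0.29 (adjusted p = 0.00848, and 0.0698 without 5xFAD hippocampus replicate 1). Of the 17, 16 were positive, with a median of 0.84 against 0.10 over all genes tested, of which 0.76% were called higher. Of 17 alternative settings, the hippocampal call of Eef1a1 was lost in 2, that of Eef2 in 2 and that of Pabpc1 in 4. In cortex Eef1a1 (0.76 ± 0.14, adjusted p = 0.00924) and Eef2 (0.74 ± 0.15, adjusted p = 0.0258) rose and 16 of 17 were positive. The cortical comparison called 0.294% of all genes tested. Eef2 lost the call, with adjusted p of 0.0657 to 0.0827, without 5xFAD cortex replicate 1, 3 or 4 or WT cortex replicate 1 or 3, and had 0.0547 without WT cortex replicate 2. In cerebellum 0 passed and 8 of 17 were positive.

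Of 3 ribosomal proteins with other symbols, only Rack1 was called in any comparison. Rack1, a scaffold protein on the head of the small subunit, was at 304, 302, 383 and 270 CPM in WT hippocampus and at 692, 789 and 567 CPM in 5xFAD hippocampus (log2 1.12 ± 0.15, adjusted p = 0.000201). In WT it was higher in cerebellum than in cortex (0.71 ± 0.14, adjusted p = 0.0302) and lower in hippocampus than in cerebellum (-0.71 ± 0.14, adjusted p = 0.0271). With the replicate block those adjusted p were 0.0788 and 0.0589. The first call was also lost (adjusted p of 0.0826 to 0.0986) without WT cortex replicate 2, 3 or 4 or WT cerebellum replicate 1 or 2, and the second (0.0831 to 0.105) without WT hippocampus replicate 1, 2 or 4 or WT cerebellum replicate 1 or 2. In 5xFAD, Eef1a1 was higher in hippocampus than in cerebellum (0.75 ± 0.16, adjusted p = 0.0437, and 0.135 with the block). That call was lost (adjusted p of 0.0773 to 0.437) without 5xFAD hippocampus replicate 1 or 2 or any of the 3 mice of 5xFAD cerebellum. The genotype effect differed between hippocampus and cerebellum for Rack1 (1.40 ± 0.22, adjusted p = 0.00383), Eef1a1 (1.29 ± 0.21, adjusted p = 0.00429) and Eef2 (1.24 ± 0.22, adjusted p = 0.0145, and 0.0591 with the block). For Eef2 the adjusted p was 0.0511 to 0.0669 without 5xFAD hippocampus replicate 1 or 2 or 5xFAD cerebellum replicate 3. In panel-positive cells Eef1a1 (0.89 ± 0.13), Rack1 (0.75 ± 0.14), Eef2 (0.71 ± 0.14) and Eef1b2, the exchange factor of eEF1A (0.79 ± 0.19), rose, with adjusted p of 0.00225, 0.0100, 0.0140 and 0.0444. The panel comparison called 1.15% of all genes tested as higher. Of the 10 fits that left out 1 pair, the call of Eef1b2 was kept only without 5xFAD cerebellum replicate 2, and in the other 9 its adjusted p was 0.0543 to 0.0979.

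No gene of the remaining lists passed the test in edgeR. Of 24 ribosome biogenesis genes, such as Ncl and Fbl, 0 passed in any of the 13 comparisons, and in 5xFAD hippocampus 15 were positive with a median of 0.15. Of 16 genes of mTOR signalling and translation control, 0 passed, and 5 were positive in hippocampus with a median of -0.17. The 8 host genes of small nucleolar RNAs, which also carry TOP tracts, gave 6 positive and a median of 0.30 there, with 0 called. The 77 proteins of the mitochondrial ribosome, which is built apart from the cytosolic one, gave 37 positive and a median of -0.02 in hippocampus, 26 positive and -0.32 in cerebellum, and 31 of 75 positive and -0.09 in panel-positive cells, with 0 called in each.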

How the data were processed

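The deposited file holds raw counts of reads per gene and well, for which the submitters' processing notes name GRCm38, STAR 2.5.2b and featureCounts 1.5.1. The annotation, strand setting and treatment of multimapping reads were not given in those sources. Deposited columns of plate columns 1 and 2 also contained other wells of their plate row, which were subtracted (0 negative values among 4673184), and 68 such wells were kept. Cells needed at least 500 genes, 10000 gene reads and at most 20% mitochondrial reads. Counts were summed per mouse and region and tested with edgeR 4.0.16 (TMM, filterByExpr, quasi-likelihood, SE from the F statistic) over all genes, with Benjamini-Hochberg adjustment and a threshold of 0.05, and the test was checked on simulated data. Printed CPM of genes are scaled by TMM, and the summed CPM of cell type markers by library size alone. Alternatives used DESeq2 1.42.0 and limma 3.58.1 on log2(CPM + 1) cell means. Gene positions and 50-base words came from GENCODE M21.

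The members and lists were chosen with earlier results of these data known. Named with values were members past the threshold, the stalk genes, Rpsa and Rps6, paralog pairs, the 5 highest and 5 lowest per kilobase, Rps19bp1 and called genes of the lists. Rpl22l1, Ncl and Fbl were named in addition where a count or a list needed a name, and some items are not reported here. Replicates are mice as the labels number them, and reads without molecular identifiers are not independent molecules.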

Additional observations from a re-analysis of the deposited data

Results flagged for a closer look

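In WT cortex, 1 of the 4 mice lay apart for Rps9, at 208.6 CPM against 240.2 CPM in the nearest other mouse. Among the panel-positive cells of 5xFAD cortex, the share of reads on ribosomal protein genes was 0.774% in mouse 1, from 9 cells, against 0.594% in the nearest other mouse. Chance flags about 1 in 20 groups, and 34 groups were checked in this way.

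The difference in genotype effect between hippocampus and cerebellum passed the test for 5 genes, with log2 differences among them of 1.10 for Rps3, 1.27 for Rps9, 1.62 for Rps14 and 1.45 for Rplp1. WT and 5xFAD lay on different plates in both regions, so plate and genotype cannot be told apart here.

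The 12 blank wells held 300 reads on ribosomal protein genes in all, 0.529% of their gene reads, on 1 to 4 of these genes per well. Of the blank reads, 78.0% fell on Slc34a2.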

How the results depend on the processing

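DESeq2 gave these numbers of members called: 1 for 5xFAD against WT in cortex, 26 in hippocampus (5 in edgeR) and 8 in cerebellum; 5 for cerebellum against cortex and 14 for hippocampus against cerebellum in WT; 2 for hippocampus against cortex and 19 for hippocampus against cerebellum in 5xFAD; 2, 28 and 10 for the differences in genotype effect between hippocampus and cortex, hippocampus and cerebellum, and cortex and cerebellum; and 35 for the panel. For 5xFAD against WT in hippocampus the count was 3 with no filter on low counts, 2 with only the groups compared, 2 with spike-in scaling, 3 with limma on cell means and 0 without panel-positive cells, and 2 to 4 with 1 mouse left out. In cortex it was 1 with spike-in scaling and 2 with limma. For the hippocampus-cerebellum difference in genotype effect it was 1 with no filter, 1 with the replicate block, 0 with only the groups compared, 0 with spike-in scaling, 0 with limma, 3 without plate columns 1 and 2, 0 without panel-positive cells, and 0 to 5 with 1 mouse left out. In WT, hippocampus against cerebellum gave 1 with limma, and in 5xFAD 2 with thinned cells. For the panel the count was 11 without the replicate block, 2 with no filter, and 4 to 5 with 1 mouse-region pair left out. No share over all genes is given for DESeq2 or the other settings, so these counts cannot be set beside the edgeR shares. The cause of these changes was not tested.

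The mean share of reads on members was 0.375% in WT cortex and 0.459% in 5xFAD cortex as a mean over cells, and without panel-positive cells 0.416% in 5xFAD cortex, 0.423% in 5xFAD hippocampus and 0.377% in 5xFAD cerebellum. Over the 27 calls of named genes, no fold change reversed, and the call was kept in 333 and lost in 181 of the alternatives run. Sums with the same replicate number did not deviate together (correlations of -0.0599 to 0.0312 over 21 pairs), so that the number marks the mouse is an assumption. Comparisons of 5xFAD with WT have different mice in each group, and no block could be fitted to them. Members with few reads or much shared sequence, such as Rps6, are limited by depth and read assignment.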
